A study of Mus musculus with 39 samples.

Results

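Duodenal gene expression was compared between mice that drank an antibiotic mixture and mice that drank plain water, all of them given saline into a brain ventricle. The members were the 6 Saline-antibiotic libraries (replicates 1 to 6) and the 6 Saline-water libraries of the same set (replicates 9 to 14), 12 of the 39 libraries of the series, chosen by their titles. All 16358 genes of the deposited count table entered, and 16340 of them passed a filter on low counts and were tested. Antibiotic mice had drinking water with 1 g/L of ampicillin and 0.5 g/L of neomycin for 48 h. Both groups consisted of wild-type male C57BL/6 mice aged 8 weeks, with a cannula in the lateral ventricle placed 3 days earlier, food withheld for 2 h and duodenum taken 2 h after the saline injection. The controls therefore shared the surgery, the injection and the food withdrawal with the antibiotic mice. The labels number replicates but do not state that each library was a separate animal, so the p-values measure the spread between these samples. The 12 other libraries of the same set, 6 Leptin-antibiotic and 6 Leptin-water, differed in that 3 µg of leptin was given in place of saline. They entered the fit to estimate the spread and served as a second antibiotic comparison that shares no library with the saline one.

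The duodenum absorbs calcium, iron, lipids and amino acids, and its epithelium also breaks down drugs and dietary chemicals. Enterocytes take up calcium through the channel encoded by Trpv6, carry it across the cytosol on calbindin-D9k, the product of S100g, and pump it out at the basal side. Ampicillin acts on bacterial cell walls and neomycin on bacterial ribosomes, and oral neomycin is poorly absorbed. Bacteria of the gut lumen are known to influence intestinal cytochrome P450 genes, antimicrobial lectins such as those of the Reg3 genes, and immune cells of the mucosa.

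Library totals of the 12 libraries lay between 30207536 and 49511953 counts (median 42881045). Markers of gut region were read beside the label of duodenum. The Brunner gland mucin gene Muc6 had 12933 ± 4970 CPM (counts scaled to library size by TMM factors; SD, n = 6) in Saline-antibiotic and 10159 ± 4271 CPM in Saline-water libraries, whereas the ileal bile acid transporter gene Slc10a2 had 1.72 ± 0.55 CPM in Saline-antibiotic and 0.94 ± 0.20 CPM in Saline-water libraries. Of the other distal ileum markers, Slc51a had 91.8 ± 17.3 CPM in Saline-antibiotic and 100 ± 20.1 CPM in Saline-water libraries. Guca2a had 7.61 ± 0.99 CPM in Saline-antibiotic and 6.57 ± 0.63 CPM in Saline-water libraries. Muc6 was listed for stomach as well as Brunner gland. These markers therefore do not settle the region by themselves. RNA of neighbouring pancreas was uneven between the groups. Summed over the 25 pancreas markers measured (of 28 listed), Saline-antibiotic 1, 2 and 5 had 1190, 1650 and 1310 CPM and Saline-antibiotic 3, 4 and 6 had 90.5 to 112 CPM, against 43.1 to 261 CPM in Saline-water libraries. In Saline-antibiotic 1, 2 and 5 none of these markers was at 0, and in the other Saline-antibiotic libraries 4 or 5 were. Markers of stomach and Brunner gland were uneven as well. Of 14 measured, 12 were higher in Saline-antibiotic libraries (median log2 fold change 0.43), and none passed the threshold. Their mean log2 CPM was 6.26, 6.48 and 6.92 in Saline-antibiotic 1, 2 and 5. It was 4.29 to 5.76 in Saline-antibiotic 3, 4 and 6 and 3.81 to 5.46 in Saline-water libraries. Leaving out the pancreas-rich libraries (named below) gave 8 of 14 positive and a median of 0.11. Saline-antibiotic 1, 2 and 5 also had the lowest T cell marker sums among the Saline-antibiotic libraries. Their shares of the ribosomal RNA gene Rn45s were the highest of that group (11.0% to 13.3%, against 6.13% to 6.56% in the other 3). Saline-water 9 stood apart by antimicrobial genes, with 7107 CPM of Reg3b against 24.8 to 265 CPM in the 5 other Saline-water libraries. Genes past the threshold that missed it without these libraries are counted together below, and only some are noted again with the gene. Where leaving out these libraries moved another named gene past the threshold, this is given with the gene. In bulk tissue, fewer cells of a type and less RNA per cell cannot be told apart.

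Among the genes that fell furthest were those of haem breakdown (Hmox1), drug metabolism (Cyp2c55, Ces2a) and calcium binding (S100g), and the genes that rose included a carbonic anhydrase, enzymes of glutamate and GABA breakdown and a fatty acid hydroxylase. By edgeR's quasi-likelihood test with Benjamini-Hochberg adjustment over all genes, 32 of 16340 genes passed an adjusted p of 0.05 (0.196%). Of these 19 were higher (0.116%) and 13 were lower (0.0796%) in Saline-antibiotic libraries. At an unadjusted p under 0.05 there were 2037 genes, 1119 higher and 918 lower. In 22 of the 32 genes the 2 groups did not overlap. The 15 higher ones stood among 72 genes of all tested (0.441%) with every Saline-antibiotic library above every Saline-water library, and the 7 lower ones among 46 (0.282%) with every one below. The split of 19 higher and 13 lower depended on the scaling and the filter. By DESeq2 the split was 91 and 92, and by limma voom with quality weights 46 and 35. It was 19 and 21 with RLE size factors, 16 and 28 with upper quartile scaling, 19 and 22 with Rn45s left out of the totals and 20 and 22 without the filter on low counts. A fit of the 12 libraries alone gave 0 genes by edgeR (lowest adjusted p = 0.0734, 1616 genes at an unadjusted p under 0.05). Without the 5 libraries high in pancreas genes (Saline-antibiotic 1, 2 and 5, Leptin-antibiotic 3 and Leptin-water 10) 17 genes passed. Of the 32, 8 were among these, namely S100g, Car4, Cyp4b1, Prr15, Npr3, Abat, Larp1b and Ppp1r3g. The other 24 of the 32 missed the threshold there, and all 32 had the same sign and an unadjusted p under 0.05. Without Saline-water 9, 100 genes passed, of which 31 were among the 32, and the exception was Ano6 (adjusted p = 0.0548).

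S100g, Ces2a and Cyp2c55 had the lowest p-values among the genes that fell. Their promoters, 300 bases of the RefSeq table of GRCm38.p6, are given because these genes carry the main fall. The windows are chrX:162964550-162964849 on the minus strand for S100g, chr8:104733753-104734052 on the plus strand for Ces2a and chr19:39006769-39007068 on the plus strand for Cyp2c55. Capitals mark AGGTCA or its reverse complement, the half-site that several nuclear receptors bind, and the TATA box letters TATAAA.
S100g: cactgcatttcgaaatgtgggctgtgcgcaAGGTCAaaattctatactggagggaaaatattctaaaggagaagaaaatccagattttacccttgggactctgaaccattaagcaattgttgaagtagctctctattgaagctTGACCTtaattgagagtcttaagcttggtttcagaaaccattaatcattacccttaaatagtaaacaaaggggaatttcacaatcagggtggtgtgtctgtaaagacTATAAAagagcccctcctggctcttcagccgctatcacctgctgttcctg
Ces2a: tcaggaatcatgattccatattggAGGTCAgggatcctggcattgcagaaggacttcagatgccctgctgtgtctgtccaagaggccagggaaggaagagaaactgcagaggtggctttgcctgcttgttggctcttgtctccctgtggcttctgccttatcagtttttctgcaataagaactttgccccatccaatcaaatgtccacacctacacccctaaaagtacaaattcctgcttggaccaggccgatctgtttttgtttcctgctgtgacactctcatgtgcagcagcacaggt
Cyp2c55: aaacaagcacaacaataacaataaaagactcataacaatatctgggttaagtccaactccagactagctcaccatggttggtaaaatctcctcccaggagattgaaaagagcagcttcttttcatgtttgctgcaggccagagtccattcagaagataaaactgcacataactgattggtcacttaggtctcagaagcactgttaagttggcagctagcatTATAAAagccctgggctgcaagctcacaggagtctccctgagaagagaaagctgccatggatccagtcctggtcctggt
The S100g window held AGGTCA once on each strand and TATAAA once, the Ces2a window held AGGTCA once, and the Cyp2c55 window held TATAAA once. Of the 13 genes that fell, 10 had a promoter in the table, of which 4 held AGGTCA on either strand and 4 held TATAAA. Of the 19 genes that rose, 12 had one, of which 0 held AGGTCA and 2 held TATAAA. Over all 12671 tested genes with a promoter the shares were 15.5% and 10.1%. These matches describe the letters only.

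S100g (GRCm38 chromosome X, 162961992 to 162964599, minus strand), the cytosolic calcium carrier of enterocytes, fell in Saline-antibiotic libraries. Its level was 345 to 573 CPM (median 406) in Saline-antibiotic and 595 to 1201 CPM (median 1062) in Saline-water libraries. The groups did not overlap, and the highest Saline-antibiotic library lay just under the lowest Saline-water library. The log2 fold change was −1.15 (SE 0.17, adjusted p = 0.00788), a 2.22-fold lower level. S100g overlaps Ctps2 on the other strand, and the strand setting of the counting is not given in the sources used here. Ctps2 itself missed the threshold (log2 0.06, adjusted p = 0.790). With the pancreas-rich libraries left out S100g stayed past the threshold (log2 −1.14, adjusted p = 0.0228).

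Other genes of calcium uptake were described from a list with 15 members measured. Of these 1, S100g, passed, 12 had a negative log2 fold change, and the median was −0.11 beside 0.01 over all genes tested. The apical calcium channel gene Trpv6 had 14 to 37.8 CPM (median 29.7) in Saline-antibiotic and 31 to 74.2 CPM (median 61.2) in Saline-water libraries. The groups overlapped at Saline-water 9, which had 31.0 CPM, and the log2 fold change of −1.02 (SE 0.23) missed the threshold (adjusted p = 0.0606). Without Saline-water 9 Trpv6 passed (log2 −1.15, adjusted p = 0.0176). Vdr, the vitamin D receptor, had 775 ± 103 CPM in Saline-antibiotic and 798 ± 139 CPM in Saline-water libraries (log2 −0.04, adjusted p = 0.899). The basal calcium pump gene Atp2b1 also missed the threshold (log2 −0.22, adjusted p = 0.440).

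Among drug-metabolising enzymes, 2 members of a 42-gene list passed, and both fell. Ces2a, a carboxylesterase that hydrolyses ester drugs (chromosome 8, 104734003 to 104741634, plus strand), had 67.2 to 152 CPM (median 118) in Saline-antibiotic and 131 to 571 CPM (median 295) in Saline-water libraries. Of the 6 Saline-antibiotic libraries 5 lay below every Saline-water library, and the log2 fold change was −1.51 (SE 0.25, adjusted p = 0.00802). Cyp2c55, a cytochrome P450 that oxidises polyunsaturated fatty acids (chromosome 19, 39007019 to 39042693, plus strand), had 15 to 49.6 CPM (median 32.5) in Saline-antibiotic and 34.2 to 199 CPM (median 132) in Saline-water libraries. The lowest Saline-water library, Saline-water 9, lay inside the Saline-antibiotic range. The log2 fold change was −1.96 (SE 0.33, adjusted p = 0.00802), a 3.90-fold lower level. With the pancreas-rich libraries left out both genes missed the threshold (log2 −1.35 for Ces2a and −1.80 for Cyp2c55, adjusted p = 0.0740 for each).

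Cyp3a44, of the cytochrome P450 family that handles most drugs and steroids, fell as well and was on none of the lists. It had 5.69 to 13.3 CPM in Saline-antibiotic and 11.2 to 37.5 CPM in Saline-water libraries (log2 −1.07, SE 0.23, adjusted p = 0.0437). Cyp3a44 missed the threshold with the pancreas-rich libraries left out (log2 −0.92, adjusted p = 0.128). Its relatives missed the threshold with all libraries. Cyp3a11 had 667 ± 168 CPM in Saline-antibiotic and 1363 ± 628 CPM in Saline-water libraries (log2 −1.03, adjusted p = 0.0650), and Cyp3a25 had 146 ± 38.9 CPM in Saline-antibiotic and 269 ± 91.8 CPM in Saline-water libraries (log2 −0.88, adjusted p = 0.0582). The values were −1.02 for Cyp3a41a (adjusted p = 0.0881) and −0.16 for Cyp3a13 (adjusted p = 0.685) on the log2 scale. Without Saline-water 9 Cyp3a11 (log2 −1.19, adjusted p = 0.0109), Cyp3a25 (log2 −1.02, adjusted p = 0.00721) and Cyp3a41a (log2 −1.17, adjusted p = 0.0215) passed. Cyp2c, Cyp3a and Ces2 genes have near-identical copies, so reads may be split between them and each value is uncertain to that extent. Nr1i2, the nuclear receptor that senses foreign chemicals and drives Cyp3a genes, had 115 ± 12.6 CPM in Saline-antibiotic and 144 ± 16.9 CPM in Saline-water libraries, with no overlap (log2 −0.33, adjusted p = 0.0865). It passed without Saline-water 9 (log2 −0.36, adjusted p = 0.0469).

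Across the drug-metabolism list 21 of 42 members had a positive log2 fold change, and the median was 0.00341. The conjugating enzyme genes Gstm1 and Gstm3 had log2 fold changes of −0.99 and −0.83 (adjusted p = 0.121 and 0.178), while Cyp2c38 had 1.20 (adjusted p = 0.120) and Akr1c19 0.68 (adjusted p = 0.139). Of these Gstm1 (log2 −1.16, adjusted p = 0.0290) and Gstm3 (log2 −0.99, adjusted p = 0.0477) passed without Saline-water 9. Off the list, 2 enzyme genes of related kind rose. Cyp4b1, which hydroxylates fatty acids and some foreign chemicals (chromosome 4, 115624725 to 115647723, minus strand), had 78.5 to 149 CPM (median 136) in Saline-antibiotic and 52.1 to 83.4 CPM (median 62.2) in Saline-water libraries. All Saline-antibiotic libraries but Saline-antibiotic 1 lay above every Saline-water library (log2 0.96, SE 0.16, adjusted p = 0.00802). Akr1c13, an aldo-keto reductase, had 209 ± 27.0 CPM in Saline-antibiotic and 137 ± 29.8 CPM in Saline-water libraries (log2 0.61, adjusted p = 0.0437).

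**Figure D1:**
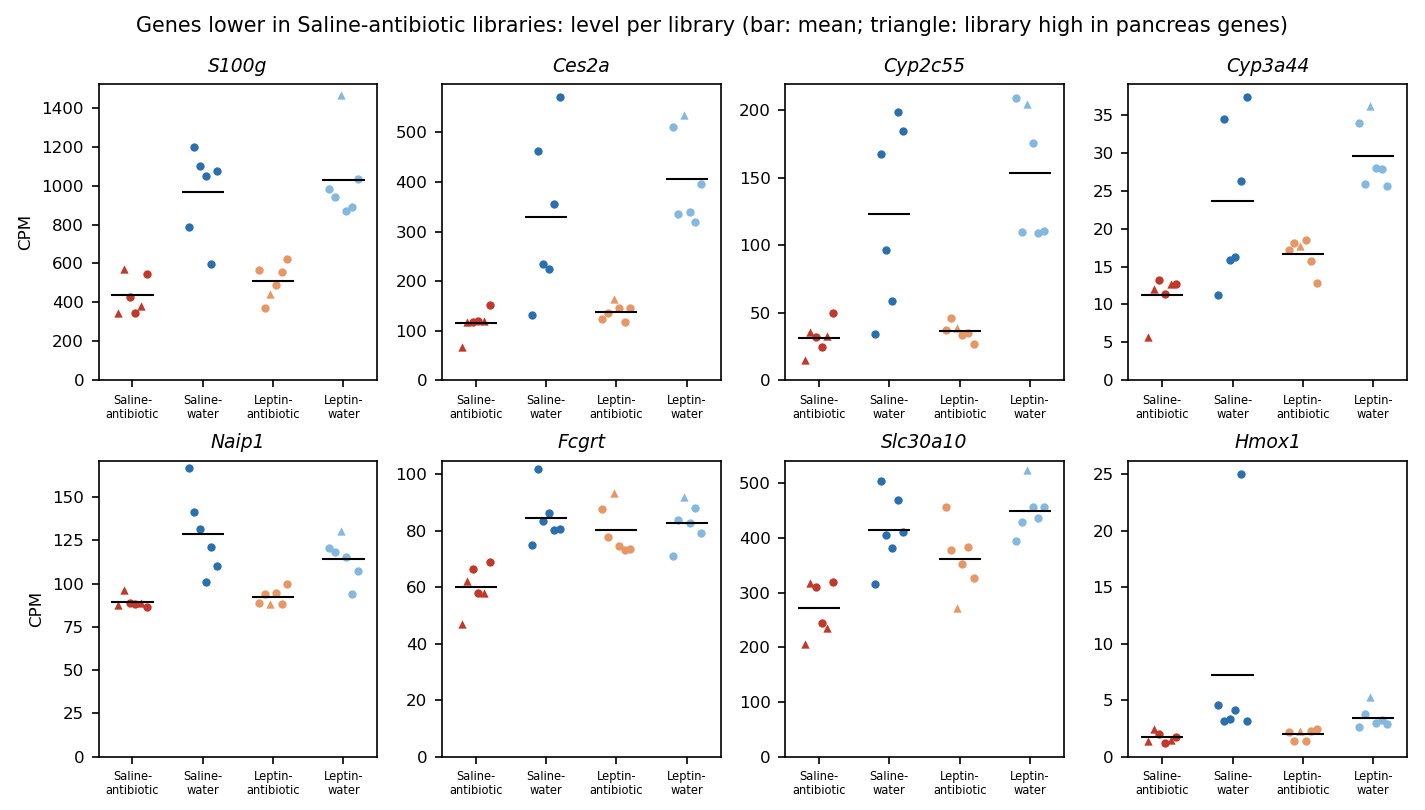
Level of 8 genes that fell, in CPM per library (vertical axes, linear, from 0), for the Saline-antibiotic, Saline-water, Leptin-antibiotic and Leptin-water groups of 6 libraries each. Bars are group means and triangles are libraries high in pancreas genes; S100g shows 345 to 573 CPM in Saline-antibiotic and 595 to 1201 CPM in Saline-water libraries, and 1 Saline-water library of 25 CPM sets the mean of Hmox1.

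Naip1, a cytosolic sensor of bacterial secretion needle protein that acts with Nlrc4 (chromosome 13, 100407764 to 100452869, minus strand), had 86.4 to 96.2 CPM (median 88.5) in Saline-antibiotic and 101 to 167 CPM (median 126) in Saline-water libraries. The groups did not overlap, and the Saline-antibiotic libraries were the more uniform (SD 3.45 CPM, against 23.6 CPM in Saline-water). The log2 fold change was −0.53 (SE 0.09, adjusted p = 0.00802), and it missed the threshold with the pancreas-rich libraries left out (log2 −0.55, adjusted p = 0.0628). Of 27 sensor and inflammasome genes measured, Naip1 was the 1 that passed, 22 had a negative log2 fold change and the median was −0.11. Nlrc4 missed the threshold (log2 −0.18, adjusted p = 0.231), and the near copies Naip2, Naip5 and Naip6, with which Naip1 may share reads, had log2 values of −0.07, −0.09 and 0.16. Tlr1, a receptor for bacterial lipoproteins, had 5.77 ± 1.27 CPM in Saline-antibiotic and 7.84 ± 1.48 CPM in Saline-water libraries (log2 −0.44, adjusted p = 0.201).

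Fcgrt, the neonatal Fc receptor that carries IgG across epithelia and protects it from breakdown (chromosome 7, 45092990 to 45103851, minus strand), fell to 47.1 to 69 CPM (median 60) in Saline-antibiotic libraries, against 74.8 to 102 CPM (median 82) in Saline-water libraries. The groups did not overlap (log2 −0.49, SE 0.09, adjusted p = 0.0103). With the pancreas-rich libraries left out Fcgrt missed the threshold (log2 −0.39, adjusted p = 0.0740).

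The antimicrobial lectin genes Reg3b and Reg3g did not pass. Reg3b had 3.75 to 197 CPM (median 24.5) in Saline-antibiotic and 24.8 to 7107 CPM (median 97.4) in Saline-water libraries (log2 −4.48, SE 1.20, adjusted p = 0.107). Reg3g had 9.56 to 176 CPM in Saline-antibiotic and 37 to 3097 CPM in Saline-water libraries (log2 −3.43, adjusted p = 0.109). Both groups spanned more than an order of magnitude and overlapped. Without Saline-water 9 the log2 fold changes were −1.02 (adjusted p = 0.548) and −0.74 (adjusted p = 0.559). Over the 19 antimicrobial and Paneth cell genes measured, 11 were positive with a median of 0.13, which was −0.02 to 0.13 under other scalings and −0.26 to 0.34 when 1 library was left out.

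The oxidase and alarm list showed the same library. Duox2, the oxidase that makes hydrogen peroxide at the epithelial surface, had 10.2 ± 3.94 CPM in Saline-antibiotic and 18.6 ± 21.5 CPM in Saline-water libraries, where Saline-water 9 had 62.0 CPM (log2 −0.88, adjusted p = 0.456). Without that library its log2 fold change was 0.02. Of the 16 genes 12 were negative with a median of −0.36. It was −0.0378 without Saline-water 9 and −0.0376 with the pancreas-rich libraries left out. Il33, an alarmin cytokine gene, had 23.5 ± 11.0 CPM in Saline-antibiotic and 13.1 ± 5.38 CPM in Saline-water libraries (log2 0.85, adjusted p = 0.218).

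No gene of antigen presentation or of the interferon response passed. Of 13 MHC class II genes, which present peptides to helper T cells, 11 were negative with a median of −0.60, and 9 had an unadjusted p under 0.05. Ciita, their master regulator, had 17.4 ± 4.69 CPM in Saline-antibiotic and 26.4 ± 10.1 CPM in Saline-water libraries (log2 −0.60, adjusted p = 0.168), and H2-Ob also missed the threshold (log2 −0.60, adjusted p = 0.199). Leaving out the pancreas-rich libraries gave a list median of −0.205. Of 39 interferon-stimulated genes 31 were positive with a median of 0.37. Apol9a had 32.9 ± 11.4 CPM in Saline-antibiotic and 15.4 ± 5.28 CPM in Saline-water libraries (log2 1.09, adjusted p = 0.194), while Gbp2, a guanylate-binding protein gene that interferon-gamma induces, had 14.5 ± 3.41 CPM in Saline-antibiotic and 21.1 ± 4.69 CPM in Saline-water libraries (log2 −0.54, adjusted p = 0.159). The interferon median was 0.403 with the pancreas-rich libraries left out and 0.183 to 0.435 with any 1 library left out.

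Immune cell markers were lower with the pancreas-rich libraries. Of 17 T cell and intraepithelial lymphocyte markers all were negative (median −0.33), and of 22 macrophage and dendritic cell markers 21 were (median −0.30), with none past the threshold. T cell markers summed to 97.1 to 255 CPM in Saline-antibiotic and 152 to 282 CPM in Saline-water libraries. The 3 lowest Saline-antibiotic sums, 97.1, 99.0 and 130 CPM, were those of the libraries high in pancreas genes. Without these libraries 15 of the 17 T cell markers were positive (median 0.14) and 8 of the 22 macrophage markers were (median −0.07). The 17 enterocyte markers were all positive (median 0.14), and also without these libraries (17 of 17, median 0.35). The 25 pancreas markers were all positive with a median of 3.06, and none passed. The part of pancreas RNA in these medians was not tested further.

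**Figure D2:**
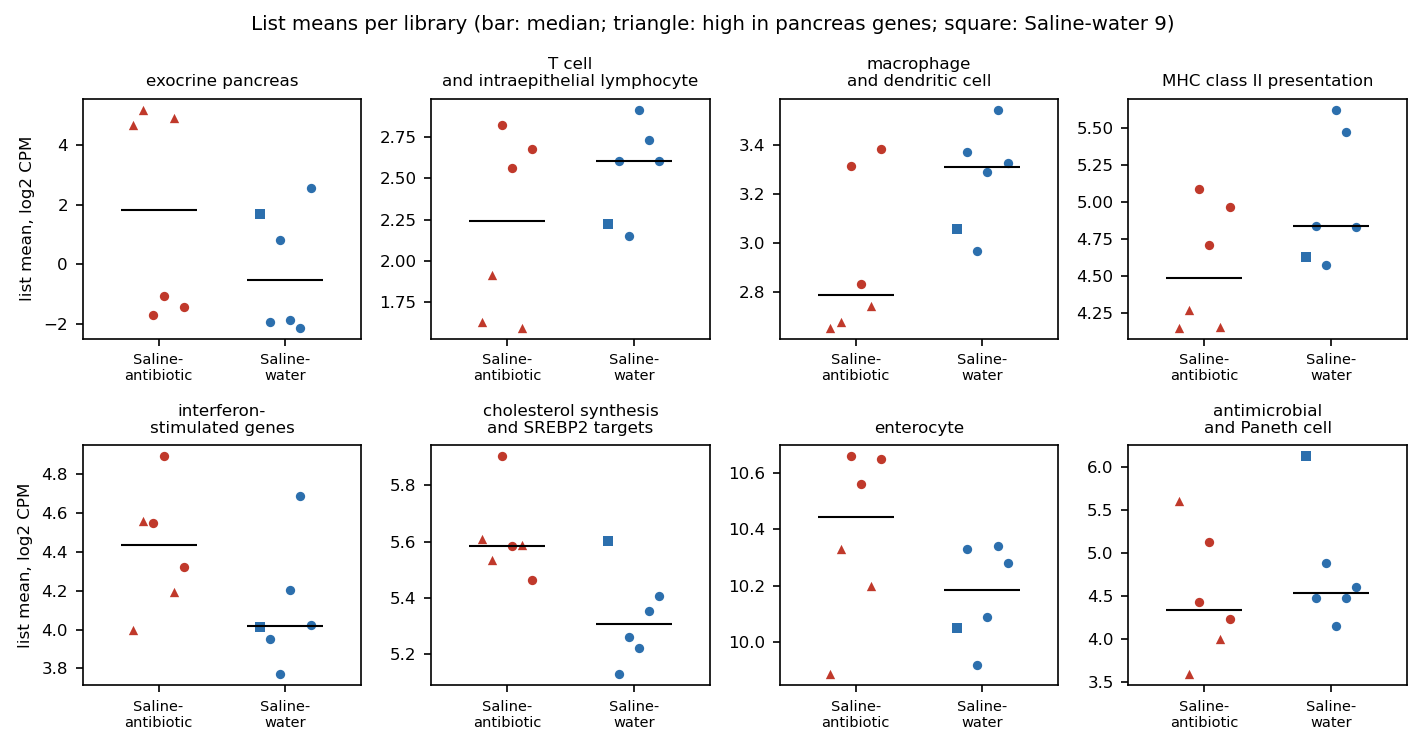
Mean log2 CPM of the measured members of 8 gene lists in each Saline-antibiotic and Saline-water library (6 each). Bars are group medians, triangles are libraries high in pancreas genes and the square is Saline-water 9; the 3 triangles are the lowest Saline-antibiotic libraries for T cell, macrophage and MHC class II genes, and the cholesterol list spans 5.46 to 5.9 in Saline-antibiotic and 5.13 to 5.6 in Saline-water libraries.

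Genes of metal and haem handling fell in 2 cases. Hmox1, the haem oxygenase that frees iron from haem (chromosome 8, 75093621 to 75100589, plus strand), had 1.25 to 2.44 CPM (median 1.61) in Saline-antibiotic and 3.13 to 25 CPM (median 3.73) in Saline-water libraries. The groups did not overlap (log2 −2.06, SE 0.42, adjusted p = 0.0388). Saline-water 13 held the 25.0 CPM, and without it the log2 fold change was −1.08 (adjusted p = 0.0154). Hmox1 missed the threshold with the pancreas-rich libraries left out (log2 −2.10, adjusted p = 0.106). Slc30a10, a manganese exporter (chromosome 1, 185454848 to 185468762, plus strand), had 206 to 320 CPM (median 278) in Saline-antibiotic and 316 to 504 CPM (median 408) in Saline-water libraries, with an overlap at the edge (log2 −0.61, SE 0.12, adjusted p = 0.0398). Its neighbour Gm2061 overlaps it on the other strand and missed the threshold (log2 −0.48, adjusted p = 0.0940). Slc30a10 itself missed the threshold with the pancreas-rich libraries left out (log2 −0.51, adjusted p = 0.0752). Of the 20 genes of the iron and metal list 13 were negative (median −0.05), among them the iron transporter genes Slc11a2 (−0.23) and Slc40a1 (−0.10) (adjusted p = 0.741 and 0.778).

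Among transport and pH genes Car4 had the lowest p-value of all genes that rose. Car4, a carbonic anhydrase anchored on the outer face of the enterocyte membrane (chromosome 11, 84957786 to 84966044, plus strand), had 25.6 to 46.8 CPM (median 41.4) in Saline-antibiotic and 9.3 to 24.9 CPM (median 16) in Saline-water libraries. The groups did not overlap (log2 1.20, SE 0.20, adjusted p = 0.00802), and the level was 2.31-fold higher. Of 29 ion and water transport genes Car4 was the 1 that passed, 21 were positive and the median was 0.07. Car2 (log2 0.53, adjusted p = 0.199), the cytosolic Car13 (log2 0.30, adjusted p = 0.188) and the chloride channel gene Cftr (log2 0.38, adjusted p = 0.243) missed the threshold, and the sodium-proton exchanger gene Slc9a3 had a log2 value of −0.62 (adjusted p = 0.286). Ano6, a phospholipid scramblase and ion channel, rose (323 ± 40.9 CPM in Saline-antibiotic, 226 ± 27.9 CPM in Saline-water, log2 0.52, adjusted p = 0.0437). Best1, a chloride channel gene known from retinal pigment epithelium, fell to 1.68 ± 0.30 CPM in Saline-antibiotic libraries, against 2.98 ± 0.66 CPM in Saline-water libraries (log2 −0.83, adjusted p = 0.0366).

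Enzymes of amino acid nitrogen rose in 2 cases, each with no overlap between groups. Abat, which breaks down the transmitter GABA (chromosome 16, 8513429 to 8621568, plus strand), had 118 to 152 CPM (median 140) in Saline-antibiotic and 72.2 to 116 CPM (median 88.6) in Saline-water libraries (log2 0.62, SE 0.11, adjusted p = 0.00911). Glud1, the mitochondrial glutamate dehydrogenase (chromosome 14, 34310727 to 34345265, plus strand), had 167 to 211 CPM (median 182) in Saline-antibiotic and 112 to 150 CPM (median 125) in Saline-water libraries (log2 0.55, SE 0.11, adjusted p = 0.0388). Of 22 amino acid and peptide uptake genes 0 passed, 18 were positive and the median was 0.13. Slc7a8, a basolateral transporter of neutral amino acids, did not overlap between groups (196 ± 31.7 CPM in Saline-antibiotic, 142 ± 18.7 CPM in Saline-water, log2 0.47, adjusted p = 0.125).

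Genes of cholesterol synthesis lay on the positive side with small values. Of 26 such genes, most of which the transcription factor SREBP2 controls, 25 were positive with a median of 0.30, 17 had an unadjusted p under 0.05, and 1 passed. Over all genes 51.84% were positive. The 1 gene that passed was Stard4, which moves cholesterol between membranes (chromosome 18, 33199355 to 33213862, minus strand), with 166 to 191 CPM (median 182) in Saline-antibiotic and 121 to 166 CPM (median 138) in Saline-water libraries (log2 0.37, SE 0.08, adjusted p = 0.0398). Msmo1, a sterol oxidase, had 58 to 78.4 CPM in Saline-antibiotic and 39.9 to 57.2 CPM in Saline-water libraries with no overlap (log2 0.40, adjusted p = 0.0606), and Idi1 had the highest value of the list (log2 0.58, adjusted p = 0.0613). Without Saline-water 9 both passed (log2 0.45 and 0.71, adjusted p = 0.0208 and 0.00721). The exception was Npc1l1, the cholesterol uptake protein (log2 −0.10, adjusted p = 0.756). The median was 0.26 to 0.33 under other scalings, 0.25 to 0.35 when 1 library was left out and 0.33 with the pancreas-rich libraries left out, where 26 of 26 were positive. Stard4 missed the threshold with the pancreas-rich libraries left out (log2 0.40, adjusted p = 0.0740).

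Of 33 fatty acid oxidation genes 24 were negative with a median of −0.07, 0 passed, and the median was 0.05 with the pancreas-rich libraries left out. Slc25a20, the mitochondrial carnitine carrier, had 52.8 ± 6.96 CPM in Saline-antibiotic and 70.6 ± 6.69 CPM in Saline-water libraries (log2 −0.42, adjusted p = 0.0582). It passed without Saline-water 9 (log2 −0.48, adjusted p = 0.0176). Of 29 lipid absorption genes 19 were positive (median 0.07) and 0 passed. Fabp2, the intestinal fatty acid-binding protein, and Apoc3, an apolipoprotein of chylomicrons, missed the threshold (log2 0.72 and 0.60, adjusted p = 0.146 and 0.143).

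Further lipid genes passed. Pnliprp2, a lipase known mainly from the pancreas, had 28.1 to 43.9 CPM (median 31.6) in Saline-antibiotic and 11 to 25.6 CPM (median 11.8) in Saline-water libraries, with no overlap (log2 1.11, SE 0.23, adjusted p = 0.0398). Saline-antibiotic 1, 2 and 5, high in pancreas genes, had 28.1, 31.4 and 31.5 CPM. Saline-antibiotic 3, 4 and 6 had 43.9, 39.1 and 31.8 CPM. Pnliprp2 missed the threshold with the pancreas-rich libraries left out (log2 1.26, adjusted p = 0.0553). The part of pancreas RNA in its level was not tested. Osbpl9, of the oxysterol-binding protein family, fell to 51.9 ± 3.45 CPM in Saline-antibiotic libraries, against 64.0 ± 5.32 CPM in Saline-water libraries (log2 −0.30, adjusted p = 0.0437). Gltpd2, of the glycolipid transfer protein family, was a rare transcript (1.59 ± 0.32 CPM in Saline-antibiotic, 0.73 ± 0.23 CPM in Saline-water, log2 1.12, adjusted p = 0.0388).

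**Figure D3:**
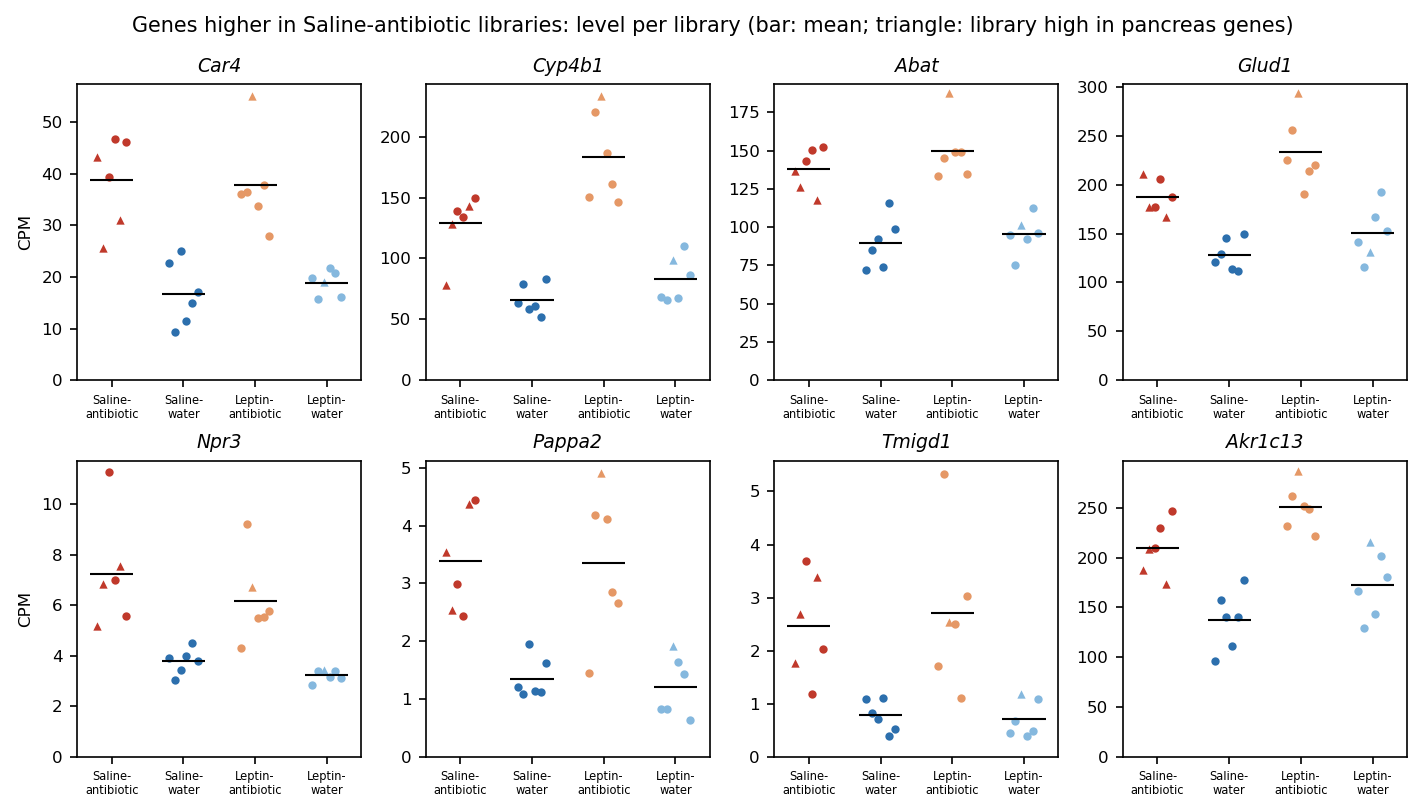
Level of 8 genes that rose, in CPM per library (vertical axes, linear, from 0), for the Saline-antibiotic, Saline-water, Leptin-antibiotic and Leptin-water groups of 6 libraries each. Bars are group means and triangles are libraries high in pancreas genes; Car4 shows 25.6 to 46.8 CPM in Saline-antibiotic and 9.3 to 24.9 CPM in Saline-water libraries.

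The other genes that rose were of varied roles. Npr3, the clearance receptor of natriuretic peptides, had 5.17 to 11.3 CPM in Saline-antibiotic and 3.04 to 4.49 CPM in Saline-water libraries (log2 0.93, SE 0.17, adjusted p = 0.0103). Pappa2, a protease that frees insulin-like growth factors from their binding proteins, had 2.43 to 4.44 CPM in Saline-antibiotic and 1.09 to 1.96 CPM in Saline-water libraries (log2 1.32, SE 0.28, adjusted p = 0.0398). Tmigd1, an adhesion protein of epithelial cells, had 1.18 to 3.69 CPM in Saline-antibiotic and 0.389 to 1.11 CPM in Saline-water libraries (log2 1.67, SE 0.36, adjusted p = 0.0437). In each of these the groups did not overlap. Ppp1r3g, a glycogen-targeting subunit of protein phosphatase, had the largest rise at the lowest level (0.61 ± 0.27 CPM in Saline-antibiotic, 0.16 ± 0.07 CPM in Saline-water, log2 1.92, SE 0.39, adjusted p = 0.0388).

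Rgn, a calcium-binding lactonase, rose (7.72 ± 1.08 CPM in Saline-antibiotic, 4.04 ± 1.08 CPM in Saline-water, log2 0.93, adjusted p = 0.00802), as did Prr15 (log2 0.63, adjusted p = 0.00911), the basal-cell keratin gene Krt15 (log2 1.10, adjusted p = 0.0103), the RNA-binding protein gene Larp1b (log2 0.28, adjusted p = 0.0388), the Sprouty family gene Spry3 (log2 0.86, adjusted p = 0.0398) and Sh2d4a (log2 0.37, adjusted p = 0.0437). Fryl fell to 237 ± 9.77 CPM in Saline-antibiotic libraries, against 308 ± 31.3 CPM in Saline-water libraries (log2 −0.37, adjusted p = 0.0188), and Shroom1, of a family that binds actin, fell too (log2 −0.63, adjusted p = 0.0398).

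**Figure D4:**
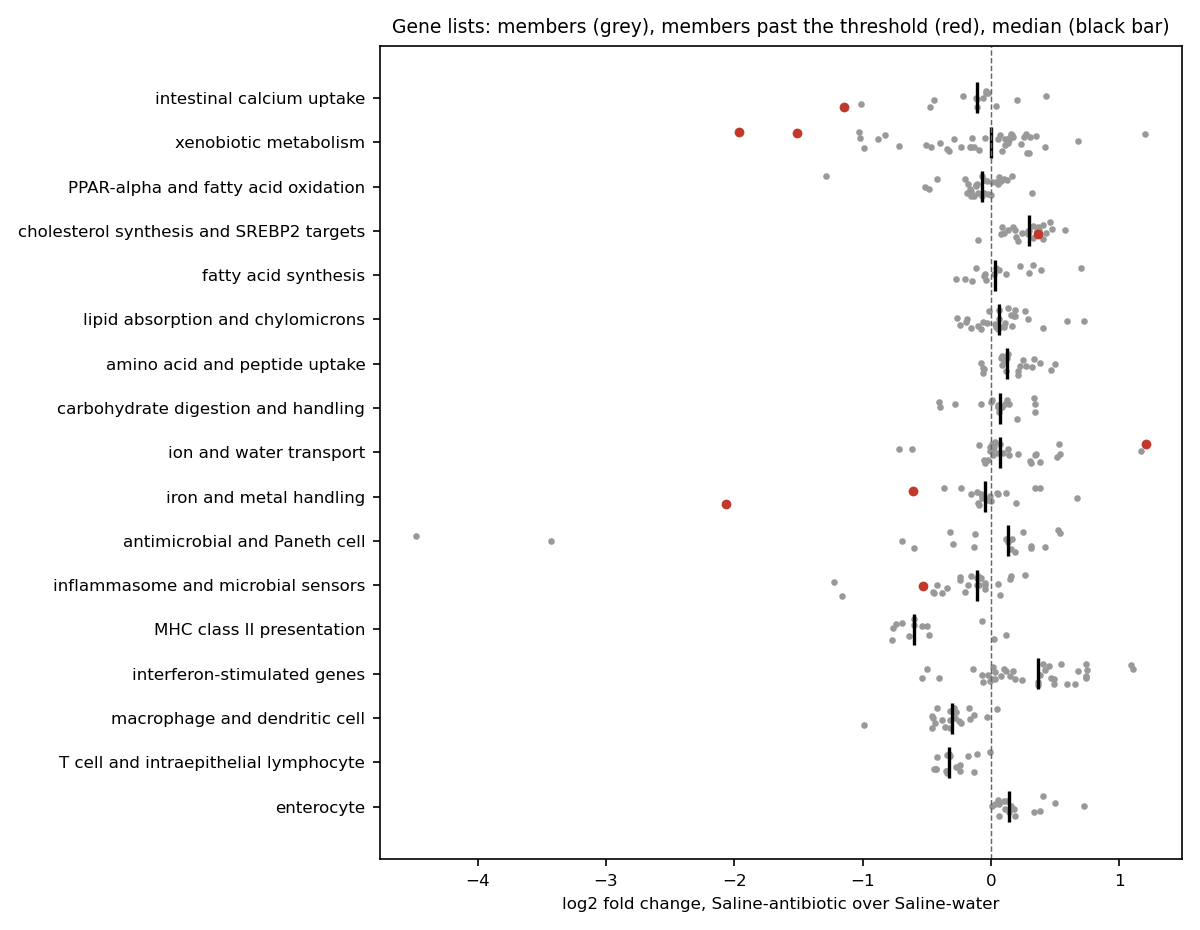
Log2 fold change of Saline-antibiotic over Saline-water (horizontal axis) of each measured member of 17 gene lists (rows). Grey points are members that missed the threshold, red points passed and black bars are medians; the cholesterol list has 25 of 26 members above 0 and the T cell list 17 of 17 below 0.

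No gene passed in the cell cycle, respiratory chain or smooth muscle lists. Cell cycle genes were positive in 23 of 25 (median 0.14; 14 of 25 and 0.01 without the libraries high in pancreas genes), and respiratory chain genes in 19 of 21 (median 0.12; 21 of 21 and 0.20 without those libraries). Of smooth muscle markers 13 of 14 were positive (median 0.14), and 3 of 14 without those libraries. The hormone gene Cck had 20.8 ± 3.57 CPM in Saline-antibiotic and 27.7 ± 4.82 CPM in Saline-water libraries (log2 −0.41, adjusted p = 0.207). Fkbp5, a glucocorticoid-induced co-chaperone, had 57.1 ± 21.1 CPM in Saline-antibiotic and 95.4 ± 49.3 CPM in Saline-water libraries (log2 −0.74, adjusted p = 0.332), and the cytokine brake gene Socs3 (log2 −0.51, adjusted p = 0.291) and the main goblet cell mucin gene Muc2 (log2 −0.19, adjusted p = 0.491) missed the threshold as well. The immediate early genes Fos and Nr4a1 had log2 fold changes of 0.19 (adjusted p = 0.703) and 1.01 (adjusted p = 0.263).

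The same antibiotic was tested in mice given leptin, in 12 libraries that were not used above other than for the spread. There 372 genes passed (2.28%), 303 higher and 69 lower (135 and 89 with upper quartile scaling). For 31 of the 32 genes that passed in saline mice the sign was shared in leptin mice, 27 had an unadjusted p under 0.05 and 21 passed. These 21 were 65.6% of the 32 and 5.65% of the 372. In 13 of the 32 the Leptin-antibiotic and Leptin-water libraries did not overlap in the same direction, 7 higher and 6 lower. Over all genes tested 341 (2.09%) had every Leptin-antibiotic library above every Leptin-water library and 124 (0.759%) had every one below. Signs matched in saline mice for 346 of the 372, and for 61.28% of all genes tested.

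S100g had 508 ± 92.1 CPM in Leptin-antibiotic and 1031 ± 221 CPM in Leptin-water libraries (log2 −1.02, SE 0.17, adjusted p = 0.00336). Ces2a had 138 ± 16.9 CPM in Leptin-antibiotic and 406 ± 94.3 CPM in Leptin-water libraries (log2 −1.55, adjusted p = 0.00315), and Cyp2c55 had 36.3 ± 6.28 CPM in Leptin-antibiotic and 153 ± 48.9 CPM in Leptin-water libraries (log2 −2.08, adjusted p = 0.00315). In all 3 genes every Leptin-antibiotic library lay below every Leptin-water library, as also for Cyp3a44 (log2 −0.83, adjusted p = 0.0490). Car4 rose by a log2 fold change of 1.00 (adjusted p = 0.00906), Cyp4b1 by 1.14 (adjusted p = 0.00207), Tmigd1 by 1.91 (adjusted p = 0.00574) and Abat by 0.65 (adjusted p = 0.00336).

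Whether the antibiotic effect differed between saline and leptin mice was tested as the difference of the 2 log2 fold changes. By edgeR 0 genes passed (0%; lowest adjusted p = 0.772), and 1043 had an unadjusted p under 0.05. By DESeq2 and by voom the count was likewise 0, with 1094 and 1206 at an unadjusted p under 0.05. Among the 32 genes 5 had an unadjusted p under 0.05 for the difference, namely Fcgrt, Sh2d4a, Krt15, Best1 and Hmox1. The 32 genes were chosen by their change in saline mice, which is part of this difference. That choice favours low p-values here, so this count cannot show that the effect differed. Fcgrt had 80.05 ± 8.498 CPM in Leptin-antibiotic and 82.8 ± 7.25 CPM in Leptin-water libraries, which was −0.05 on the log2 scale beside −0.49 in saline mice (difference −0.44, SE 0.12, unadjusted p = 0.00140, adjusted p = 0.772 by edgeR). Sh2d4a was the 1 gene of the 32 with the opposite sign (log2 −0.04 in leptin mice). For S100g the difference was −0.13 (SE 0.24) and for Ces2a 0.04 (SE 0.34).

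**Figure D5:**
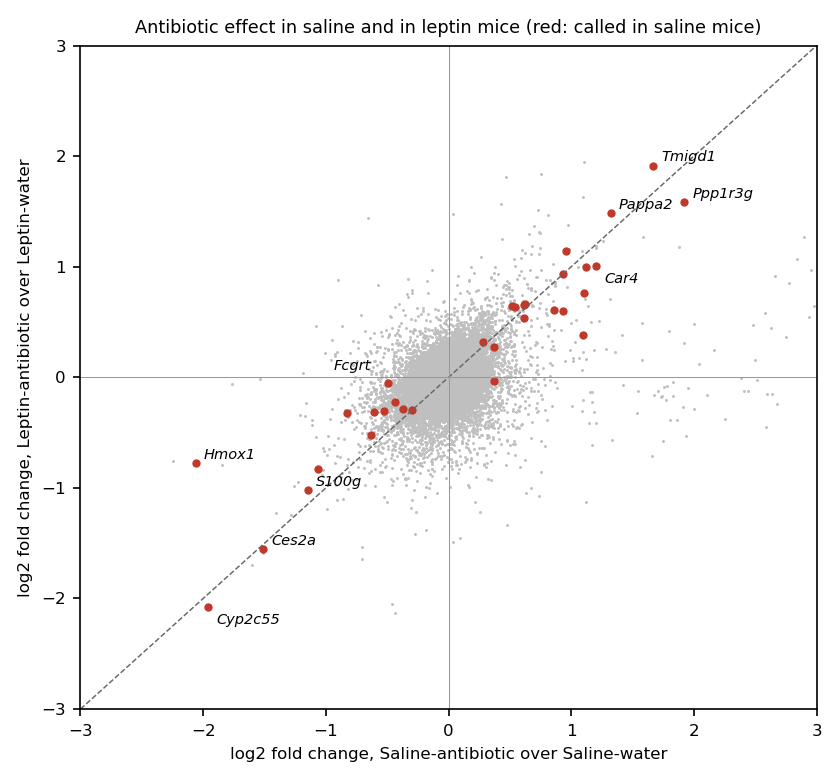
Log2 fold change of antibiotic over water in saline mice (horizontal axis) and in leptin mice (vertical axis) for each gene tested, from −3 to 3, with 22 genes outside the axes. Red points are the 32 genes past the threshold in saline mice and the dashed line marks equal values; Cyp2c55, Ces2a and S100g lie near that line on the lower left and Fcgrt lies near 0 in leptin mice.

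The cholesterol list had 23 of 26 genes positive in leptin mice (median 0.13), the interferon list 37 of 39 (median 0.62) with 5 genes past the threshold, and the amino acid uptake list 21 of 22 (median 0.37) with 7 past it. Over all genes 47.8% were positive there. The mean log2 CPM of the interferon list was 5.725 in Leptin-antibiotic 2 and 3.756 to 4.723 in the other Leptin-antibiotic libraries. In Leptin-water libraries it was 3.686 to 4.682. The part of Leptin-antibiotic 2 in the interferon median was not tested. MHC class II genes had a median of −0.24 in leptin mice, and T cell markers had −0.16. Other lists had medians of opposite sign in leptin and saline mice. Cell cycle genes were positive in 7 of 25 in leptin mice (median −0.05) and in 23 of 25 in saline mice, and antimicrobial and Paneth cell genes in 4 of 19 (median −0.28) and in 11 of 19. MHC class I and peptide loading genes were positive in 16 of 18 in leptin mice (median 0.16) and in 5 of 18 in saline mice, and fatty acid oxidation genes in 20 of 33 (median 0.08) and in 9 of 33. Without the pancreas-rich libraries, saline mice had 17 of 18 MHC class I genes positive (median 0.14) and 18 of 33 fatty acid oxidation genes (median 0.05). Cell cycle genes were then positive in 14 of 25 (median 0.01) and antimicrobial and Paneth cell genes in 10 of 19 (median 0.05). The leptin values of these lists still include the pancreas-rich Leptin-antibiotic 3 and Leptin-water 10, so the sets of libraries are unlike. Leptin list values without these libraries were not computed. The differences of these lists between saline and leptin mice were not tested. Reg3b had 2.98 to 25.9 CPM in Leptin-antibiotic and 27.9 to 225 CPM in Leptin-water libraries, with no overlap (log2 −3.20, SE 1.14, adjusted p = 0.126). Reg3g also did not overlap (11.4 to 28.6 CPM in Leptin-antibiotic, 30.9 to 180 CPM in Leptin-water, log2 −2.26, adjusted p = 0.165). The difference between saline and leptin mice did not pass the threshold for any of these genes.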

How the data were processed

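Per the labels' protocols, 150 ng of duodenal RNA per sample was depleted of ribosomal RNA, made into stranded libraries and read as paired ends. The authors deposited raw counts, 1 row a gene symbol, after a filter whose rule is not stated. Build mm10 and the tools HISAT2, featureCounts, FastQC and edgeR (version 3.42.0) come from the submitters' processing notes. Neither annotation nor strand setting is stated.

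The 24 libraries of set MT, in 4 groups, were fitted with edgeR 4.0.16 (R 4.3.3; quasi-likelihood F test, TMM factors, filterByExpr, 20 residual degrees of freedom), with Benjamini-Hochberg adjustment across 16340 genes and a threshold of 0.05. CPM values are TMM-scaled, list means use log2 CPM (prior count 2), and each SE was the absolute log2 fold change divided by the root of its F value. The fit was tested on simulated data. Positions are from GENCODE vM21 (GRCm38, the assembly also called mm10), in which 97.8% of the symbols matched. No pair of libraries within a group was identical (30 pairs, chi-square per degree of freedom 22 to 201). Precision is limited by 6 libraries a group and by the library totals given above.

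The members and all gene lists were chosen with earlier results of these data known. Of 957 members of 46 lists (27 of processes, 19 of cell types), 884 were matched. Genes were named by rule: every gene past the threshold (some items are not reported here), the 2 members of a process list with the lowest p, the 2 cell type markers with the highest mean, a fixed set (Trpv6, Vdr, Reg3b, Reg3g, Duox2, Muc2, Cck, Fkbp5, Socs3, Fos, Nr4a1), the 4 lowest p in each direction for the difference between saline and leptin mice, and members of a list described as a whole. Alternatives were RLE and upper quartile scaling, DESeq2 1.42.0, limma 3.58.1 voom with quality weights, other filters, the 12 libraries alone, Rn45s left out, the pancreas list mean as a covariate, libraries with that mean above 4 left out, and each library left out.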

Additional observations from a re-analysis of the deposited data

Results flagged for a closer look

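Single libraries stood apart from the other 5 of their group in 23 of 192 groups of values, by Dixon's criterion on the gap to the nearest library. A rate of 1 in 20 would give about 9.6, but this holds for independent, normally distributed values. Genes of the same library are not independent, so no excess over 9.6 can be read from this count. Of the 23 values 8 were of Saline-water 9.

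In Saline-water 9 Reg3b had 7107 CPM (24.79 to 264.9 in the other libraries of its group), Reg3g 3097 CPM, the glycosyltransferase gene B3galt5 201.9 CPM (7.309 to 9.466 in the others), Duox2 62.03 CPM, Muc4 236.1 CPM, Fasn 180.4 CPM and Tlr1 10.67 CPM, all the highest of their group, and Vdr had 528.2 CPM, the lowest. Other highest Saline-water values were 24.99 CPM of Hmox1 and 184.5 CPM of Fut8 in Saline-water 13, 4.28 CPM of Best1 in Saline-water 10, 4.517 CPM of Spry3 in Saline-water 11, 45.89 CPM of Ciita in Saline-water 12 and 13.73 CPM of Nr4a1 in Saline-water 14.

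Among Saline-antibiotic libraries, replicate 1 was lowest for Cyp4b1 (78.54 CPM), Cyp3a44 (5.687 CPM), Apoc3 (103.9 CPM) and Apoa4 (2593 CPM), replicate 2 was highest for Naip1 (96.16 CPM), and replicate 3 was highest for Reg3g (175.6 CPM), Duox2 (17.87 CPM), Msmo1 (78.35 CPM) and Nr3c1 (303 CPM).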

How the results depend on the processing

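All 32 genes past the threshold kept their sign under every alternative in which they were tested. The count of 32 was 183 by DESeq2, 81 by limma voom with quality weights, 0 in the fit of the 12 libraries alone, 17 (15 higher, 2 lower) without the libraries high in pancreas genes and 16 with the pancreas list mean as a covariate. It was 14 (without Saline-antibiotic 2) to 100 (without Saline-water 9) when 1 library was left out, and 15 without Saline-antibiotic 4, 16 without Saline-water 10, 18 without Saline-water 12 and 20 without Saline-antibiotic 5 or 6. In all 12 of these fits 13 genes passed, among them S100g, Ces2a, Cyp2c55, Car4, Cyp4b1, Naip1, Abat and Fcgrt, of which Ces2a, Cyp2c55, Naip1 and Fcgrt missed the threshold without the pancreas-rich libraries. The leptin count of 372 was 224 with upper quartile scaling, 780 by DESeq2, 1394 by voom, 205 without the libraries high in pancreas genes, and 73 (without Leptin-water 9) to 501 (without Leptin-water 12) when 1 library was left out, with 85 without Leptin-water 8, 91 without Leptin-antibiotic 2, 125 without Leptin-water 11 and 137 without Leptin-antibiotic 3. The difference between saline and leptin mice gave 0 genes in every alternative. Without the libraries high in pancreas genes the sign turned for Gzma (0.1561), Itgae (0.07914), Amy2a5 (−4.628) and Vdr (0.087), and with the covariate for Amy2a5 (−0.6463), none of which passed in any of these fits. Leaving out 1 library gave −2.461 to 0.06675 for B3galt5, −0.02181 to 0.1345 for Alpi, −0.01921 to 0.1342 for Mertk, −0.148 to 0.005332 for Vdr and −1.114 to 0.01852 for Duox2, and −2.228 to −1.084 for Hmox1. The cause of these shifts was not tested. DESeq2 gave no adjusted p for Hmox1, Reg3b, Reg3g and B3galt5. No paired analysis was possible because the compared groups share no replicate numbers (1 to 6 and 9 to 14).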
